A study of Mus musculus with 6 samples.

Results

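The genes described here encode carriers that move amino acids and small peptides across cell membranes. They are the protein-coding genes of solute carrier families 1, 3, 6, 7, 15, 36, 38 and 43, taken by symbol, 69 of 55487 genes in the table and of 21823 protein-coding ones. The rule reads symbols only, and it also takes in Slc7a6os, a neighbour of Slc7a6 on the opposite strand that is not a carrier, and several family 6 members that carry neurotransmitters, taurine or creatine. A further 3 non-coding genes with such symbols were left out.

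Of 6 RNA-seq libraries, 3 came from Lgr5-2A-DTR mice (DTR) and 3 from wild-type mice (WT). In DTR mice a diphtheria toxin receptor is expressed from the locus of Lgr5, the receptor gene that marks intestinal stem cells, so that diphtheria toxin kills Lgr5-positive cells. All mice, WT included, were C57BL/6 adults over 8 weeks old, were given the toxin at 20 µg per kg on each of 4 days and were taken 6 h after the last dose. RNA came from whole small intestine, so that muscle, stroma, immune cells and any attached tissue were in the libraries together with the epithelium. Whether the 3 libraries of a genotype are from different mice is not stated, and the p-values below therefore reflect the spread among these libraries, which may be technical.

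Dietary protein is cut by peptidases on the enterocyte brush border into amino acids and small peptides. These enter the cell through apical carriers, many driven by sodium or protons, and leave through basolateral carriers towards the blood. Some carriers are pairs of a light chain, which holds the transport path, and a heavy chain, which brings it to the membrane: Slc7a9 pairs with Slc3a1 at the brush border, and several Slc7 light chains pair with Slc3a2 at the basolateral side. Growing or stressed cells of many tissues take up amino acids from the blood side through another set, which includes Slc7a5, Slc1a5, Slc38a1 and Slc38a2, and the transcription factor ATF4 is known to raise several of these when amino acids are short.

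Libraries held 61404574 to 76596766 reads in genes. Lgr5 had 22, 0 and 34 reads in DTR replicates 1, 2 and 3 and 315, 254 and 229 reads in WT replicates 1, 2 and 3. Xist had 22432 to 24279 reads in DTR libraries and 16 to 38 in WT libraries, and 4 Y-linked genes had 0 reads in every DTR library and 1085 to 4722 in each WT library, so that genotype and this sex pattern cannot be told apart. Of the X-linked carrier genes (Slc6a8, Slc38a5, Slc7a3 and Slc6a14), none passed in limma: Slc6a8 and Slc38a5 had adjusted p = 0.987 and 0.0687, and the others lay below the filter. The tissue label was met by 10 absorptive enterocyte markers, with a summed level of 23325 to 41432 RPKM in DTR and 24824 to 30341 RPKM in WT and no marker at 0. Pancreatic acinar markers were also high, at 7312 to 23222 RPKM summed over 7 genes in DTR and 10706 to 31953 RPKM in WT.

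Levels are RPKM, reads scaled to gene length and library size. Triplets of values below are for replicates 1, 2 and 3 in that order. Changes are DTR over WT on the log2 scale of the deposited values, from limma fitted to 15563 genes with a mean log2 RPKM above -2, and a gene passed at a Benjamini-Hochberg adjusted p below 0.05. Of the 69 carrier genes, 42 were above this filter and 27 below it.

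The brush border carriers that passed were all lower in DTR (5 genes), and the carriers known from growing or stressed cells that passed were all higher (5 genes); these role groups were drawn up with earlier results of these data known, so their directions are a description. Of the 42 tested genes 9 rose (21.4%, against 9.54% of all tested genes) and 8 fell (19.0%, against 8.74%), and 25 did not pass. The values of the DTR and WT libraries did not overlap for 31 of the 42, against 47.7% of all tested genes. The median log2 change was -0.25 over the 42 genes and 0.03 over all tested genes. The families with the most members passing were Slc6 (2 higher and 3 lower of 10 tested), Slc7 (2 and 1 of 9), Slc38 (2 and 1 of 8) and Slc43 (2 and 1 of 3), while none of the 4 tested Slc15 genes passed. Summed over all 69 genes the level was 899, 1161 and 876 RPKM in DTR libraries and 1286, 1140 and 1292 RPKM in WT libraries, and DTR replicate 2 lay within the WT range.

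These calls leaned on every WT library, as did the calls over all tested genes. Of all tested genes 2845 passed with every library, and 152, 157 and 207 without WT replicate 1, 2 and 3. Leaving out DTR replicate 1, 2 and 3 gave 5605, 2405 and 1010. Slc36a1, Slc43a2 and Slc6a6 passed without any 1 of the 6 libraries. Without WT replicate 1, 2 or 3 they were the only ones of the 17 that passed, which leaves 1 carrier gene higher and 2 lower. Without DTR replicate 3, 3 were higher and 4 lower. Without DTR replicate 2, 5 were higher and 10 lower, and without DTR replicate 1, 11 and 13. In whole tissue, fewer cells of a type and less RNA per cell cannot be told apart.

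**Figure D1:**
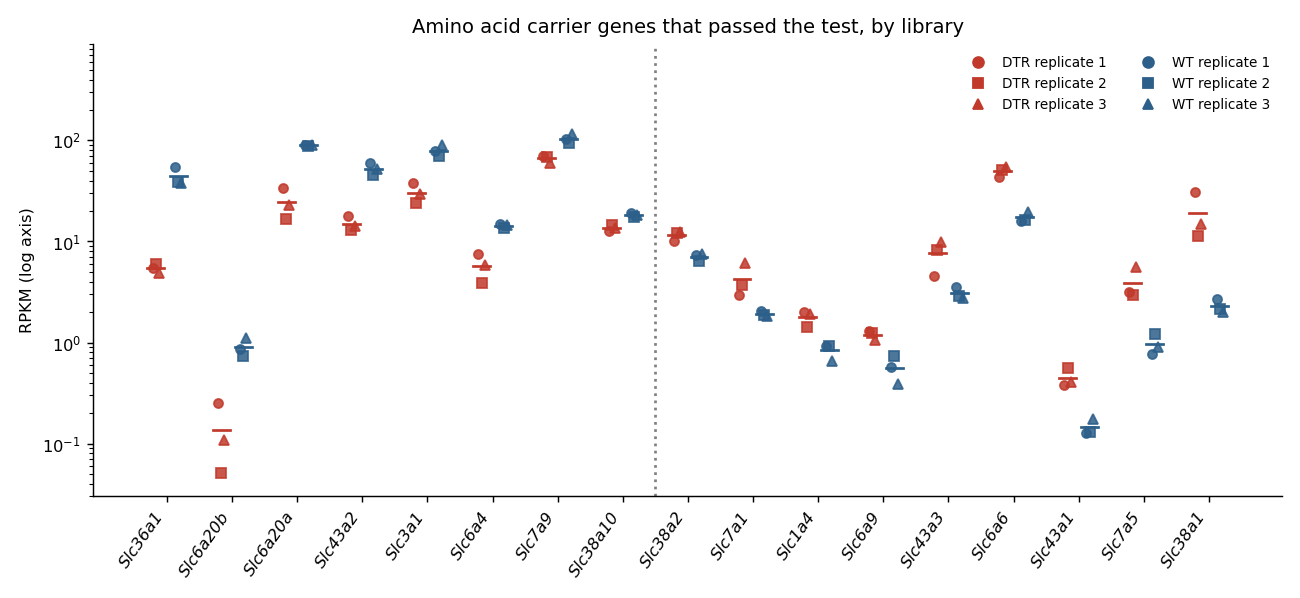
RPKM on a log axis of the 17 carrier genes that passed, by library, with DTR left of WT for each gene, points for replicates, bars for the mean, and a dotted line between lower and higher genes. For every one of the 17 genes the 3 DTR points lie on one side of the 3 WT points. The genes were chosen by the test, and 47.7% of all tested genes show no overlap either. Slc36a1 runs from 4.85 to 5.98 RPKM in DTR and from 37.9 to 54.9 RPKM in WT.

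Among the 11 carriers placed at the brush border, 8 were tested, 5 fell and none rose. Of all tested genes 8.74% fell and 9.54% rose. Slc15a1, Slc1a1 and Slc6a19 did not pass. Without WT replicate 1, 2 or 3 only Slc36a1 passed, and without DTR replicate 3, 3 genes fell. The group's summed level was 346, 533 and 277 RPKM in DTR libraries and 658, 555 and 654 RPKM in WT libraries, without overlap. Slc6a19 made up 142, 358 and 126 RPKM of the DTR sums and 224, 194 and 232 RPKM of the WT sums. The promoter windows of 4 of the genes that fell are shown first, with that of Slc1a4, which rose. Of the 5 genes that rose and had a window, Slc1a4 alone held TGATGNAA, and the other windows are not shown. The windows run from 250 bases before to 50 after the start in RefSeq (GRCm38.p6), 5′ to 3′ on the gene's strand. Capitals mark letters on either strand that known factors bind: CACGTG for E-box factors, AGAACA for the glucocorticoid receptor, CAAAGTC for HNF4 and TGATGNAA for C/EBP-ATF dimers. The search for CACGTG was added after the Slc36a1 window was seen.

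Slc36a1 promoter (chr11:55204090-55204389, plus strand): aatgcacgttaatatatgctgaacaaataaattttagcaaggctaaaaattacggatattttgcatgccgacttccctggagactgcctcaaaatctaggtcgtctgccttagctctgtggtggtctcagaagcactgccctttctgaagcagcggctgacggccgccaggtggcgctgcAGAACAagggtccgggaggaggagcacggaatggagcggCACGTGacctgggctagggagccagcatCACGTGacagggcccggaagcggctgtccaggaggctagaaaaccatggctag
Slc3a1 promoter (chr17:85028097-85028396, plus strand): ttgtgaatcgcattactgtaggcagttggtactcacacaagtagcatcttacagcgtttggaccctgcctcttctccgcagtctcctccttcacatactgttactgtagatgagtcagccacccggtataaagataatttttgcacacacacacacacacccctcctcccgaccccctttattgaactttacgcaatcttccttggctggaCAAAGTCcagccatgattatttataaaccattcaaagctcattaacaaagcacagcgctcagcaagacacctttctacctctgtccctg
Slc6a20a promoter (chr9:123678783-123679082, minus strand): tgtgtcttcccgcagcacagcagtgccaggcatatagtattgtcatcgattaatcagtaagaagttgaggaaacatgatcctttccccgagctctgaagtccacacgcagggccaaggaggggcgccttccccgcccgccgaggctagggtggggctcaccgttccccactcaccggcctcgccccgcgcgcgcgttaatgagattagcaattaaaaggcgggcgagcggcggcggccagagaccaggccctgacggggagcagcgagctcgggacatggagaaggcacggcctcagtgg
Slc6a20b promoter (chr9:123632489-123632788, minus strand): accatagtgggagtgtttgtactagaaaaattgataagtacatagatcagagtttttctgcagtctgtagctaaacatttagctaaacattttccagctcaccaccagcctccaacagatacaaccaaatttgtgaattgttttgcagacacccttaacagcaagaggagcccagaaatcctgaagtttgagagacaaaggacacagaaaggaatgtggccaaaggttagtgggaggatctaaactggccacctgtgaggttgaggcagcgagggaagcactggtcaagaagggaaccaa
Slc1a4 promoter (chr11:20332664-20332963, minus strand): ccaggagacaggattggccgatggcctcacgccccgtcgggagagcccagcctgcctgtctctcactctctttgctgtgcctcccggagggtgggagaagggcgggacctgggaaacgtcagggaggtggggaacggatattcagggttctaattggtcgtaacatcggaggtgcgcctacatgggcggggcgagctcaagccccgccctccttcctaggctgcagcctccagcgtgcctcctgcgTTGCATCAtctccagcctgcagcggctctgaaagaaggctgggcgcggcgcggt

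The Slc36a1 window held CACGTG 2 times. Of 32851 RefSeq windows of this length, 7.15% held these letters and 0.594% held them 2 or more times, Slc36a1 alone among the carrier genes with a window. It also held AGAACA, as did 19.0% of windows. The Slc3a1 window held CAAAGTC (4.44% of windows) and the Slc1a4 window held TGATGNAA on the reverse strand (3.97% of windows). None of these letters occurred in the windows of Slc6a20a and Slc6a20b. AAGGTCA, the letters of oestrogen-related receptors (4.72% of windows), was in none of the windows of carrier genes that passed. Windows were found for 50 of the 69 genes and 13 of the 17 that passed. Of the 5 genes that rose and had a window, 1 held TGATGNAA, 1 AGAACA and 1 CACGTG; of the 8 that fell, 1 held AGAACA, 1 CAAAGTC and 1 CACGTG. A match is a description of the letters, not of a site in use.

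Slc36a1, a proton-driven carrier of glycine, alanine and proline found at the brush border and in lysosomes (chromosome 11, 55204350 to 55236330, plus strand, mm10), showed the most negative log2 change of the 42 tested genes, next to the scarce Slc6a20b. It had 5.52, 5.98 and 4.85 RPKM in DTR libraries, against 54.9, 39.2 and 37.9 RPKM in WT libraries. The highest DTR library was far below the lowest WT library, and mean RPKM was 8.08 times lower in DTR (log2 change -3.00, SE 0.18; limma adjusted p = 0.00186). Across the 17 other settings its adjusted p stayed between 0.000797 and 0.0211. By mean level it was the 21st of the 69 genes in DTR and the 12th in WT.

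The brush border proline carrier genes Slc6a20a and Slc6a20b fell as well. Slc6a20a, a sodium-driven carrier of proline and related imino acids (chromosome 9, 123634770 to 123678885, minus strand), had 34.0, 16.5 and 23.2 RPKM in DTR libraries, against 90.5, 89.0 and 89.3 RPKM in WT libraries. The WT libraries lay close together and all DTR libraries were lower, DTR replicate 2 most (log2 change -1.93, SE 0.25; limma adjusted p = 0.0114). Its exons overlap those of Gm17120, Gm17200 and Ccr9 on the other strand by 607 bases in all. Its neighbour and close copy Slc6a20b (chromosome 9, 123590800 to 123632565, minus strand) was far less abundant and had 140, 27 and 57 reads in DTR libraries, against 548, 384 and 718 reads in WT libraries (log2 change -2.99, SE 0.60; limma adjusted p = 0.0262). Of the 50-base stretches in Slc6a20a transcripts 15.3% also occur in Slc6a20b, and 7.24% the other way, so reads could be split between them. On a log2(RPKM + 1) scale the change of Slc6a20b was only -0.74, and its exons overlap those of Sacm1l on the other strand by 1800 bases.

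Both chains of the cystine and dibasic amino acid carrier fell, the heavy chain more than the light chain. Slc3a1, the heavy chain (chromosome 17, 85028376 to 85064236, plus strand), had 37.5, 24.0 and 29.7 RPKM in DTR libraries, against 78.1, 69.5 and 90.2 RPKM in WT libraries (log2 change -1.40, SE 0.19; limma adjusted p = 0.0124). Slc7a9, the light chain (chromosome 7, 35448796 to 35466036, plus strand), had 70.4, 69.3 and 59.2 RPKM in DTR libraries, against 103, 94.3 and 116 RPKM in WT libraries (log2 change -0.65, SE 0.13; limma adjusted p = 0.0269). For each, all DTR libraries lay below all WT libraries. The Slc3a1 exons overlap those of Prepl on the other strand by 601 bases, and strand use in counting is not given in the sources used here.

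The main carriers of neutral amino acids and of peptides, Slc6a19 and Slc15a1, did not pass. Slc6a19, the main sodium-driven neutral amino acid carrier of intestine, had 142, 358 and 126 RPKM in DTR libraries, against 224, 194 and 232 RPKM in WT libraries. DTR replicate 2 was above every WT library while DTR replicates 1 and 3 were below all of them (log2 change -0.22, SE 0.39; limma adjusted p = 0.705). Without DTR replicate 2 it passed as lower (adjusted p = 0.0302; log2 change -0.69), and without DTR replicate 3 its estimate turned positive (0.064). Slc15a1, the proton-driven carrier of dipeptides and tripeptides, had 54.5, 57.8 and 33.4 RPKM in DTR libraries, against 105, 67.2 and 86.7 RPKM in WT libraries. Its groups did not overlap, but libraries of both groups were spread (SD of log2 RPKM 0.435 in DTR and 0.321 in WT). The log2 change was -0.84 with an SE of 0.26 (limma adjusted p = 0.0679), and its adjusted p ranged from 0.0501 to 0.197 in other settings. Slc1a1, a glutamate and aspartate carrier, was scarce, with 0.766, 0.604 and 0.984 RPKM in DTR libraries, against 1.22, 1.04 and 1.05 RPKM in WT libraries; the groups did not overlap but it did not pass (log2 change -0.52, SE 0.25; limma adjusted p = 0.177).

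Where 8.74% of all tested genes fell and 9.54% rose, 3 of 10 absorptive enterocyte markers fell and none rose. These markers moved beside the brush border group only in part, with a median log2 change of -0.34. Their summed level overlapped between the groups and was highest in DTR replicate 2, as was Slc6a19. Markers of some other cell types fell further. Those of goblet cells (median log2 change -0.12), fibroblasts (-0.22), endothelium (-0.095), smooth muscle (0.35) and enteric neurons and glia (0.39) did not. Of 7 Paneth cell markers 6 fell (median log2 change -2.29; 538 to 736 RPKM summed in DTR and 2508 to 3914 RPKM in WT), and of 6 tuft cell markers 4 were tested and all 4 fell (-4.47; 0.899 to 1.61 RPKM in DTR and 18.7 to 20.0 RPKM in WT). Of 6 T cell markers 5 fell (-1.96; 5.79 to 15.4 RPKM in DTR and 34.4 to 51.5 RPKM in WT). None of these markers rose or was at 0 in any library. The part of the cell content of the tissue in the carrier changes was not tested.

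Among the 6 basolateral genes 1 fell and 1 rose, where 8.74% of all tested genes fell and 9.54% rose. The abundant light chains and their heavy chain did not pass. Slc43a2, a facilitative carrier of branched-chain and aromatic amino acids (chromosome 11, 75531694 to 75577575, plus strand), had 17.9, 12.9 and 14.1 RPKM in DTR libraries, against 60.0, 45.6 and 52.5 RPKM in WT libraries. Every DTR library was well below every WT library (log2 change -1.82, SE 0.17; limma adjusted p = 0.00533), and the call held in all 17 other settings (adjusted p up to 0.0403). Slc43a1, a carrier of the same substrates (chromosome 2, 84838850 to 84863594, plus strand), was scarce and went the other way, with 0.383, 0.554 and 0.403 RPKM in DTR libraries, against 0.128, 0.132 and 0.175 RPKM in WT libraries (log2 change 1.61, SE 0.34; limma adjusted p = 0.0287). It rests on 141, 195 and 143 reads in DTR libraries and 54, 46 and 76 reads in WT libraries, and its call was lost in 7 of 16 other settings (adjusted p up to 0.107).

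Slc3a2, the heavy chain shared by several light chains, was abundant, with 64.5, 71.0 and 72.2 RPKM in DTR libraries, against 84.2, 75.9 and 82.0 RPKM in WT libraries; its groups did not overlap, but the difference was small (log2 change -0.22, SE 0.11; limma adjusted p = 0.182). Slc7a7, which exports dibasic amino acids, had 50.9, 49.4 and 43.8 RPKM in DTR libraries, against 56.1, 50.1 and 68.4 RPKM in WT libraries (log2 change -0.27, SE 0.15; limma adjusted p = 0.225). Slc7a8, a neutral amino acid exchanger, had 45.4, 31.7 and 28.7 RPKM in DTR libraries, against 52.6, 45.3 and 47.7 RPKM in WT libraries (log2 change -0.49, SE 0.19; limma adjusted p = 0.112). For both light chains the highest DTR library reached the WT range. Slc7a6, a less abundant relative of Slc7a7, had 1.15, 2.12 and 1.77 RPKM in DTR libraries, against 0.888, 1.15 and 0.924 RPKM in WT libraries (log2 change 0.73, SE 0.28; limma adjusted p = 0.106). The group's summed level was 180, 168 and 161 RPKM in DTR libraries and 254, 218 and 252 RPKM in WT libraries.

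**Figure D2:**
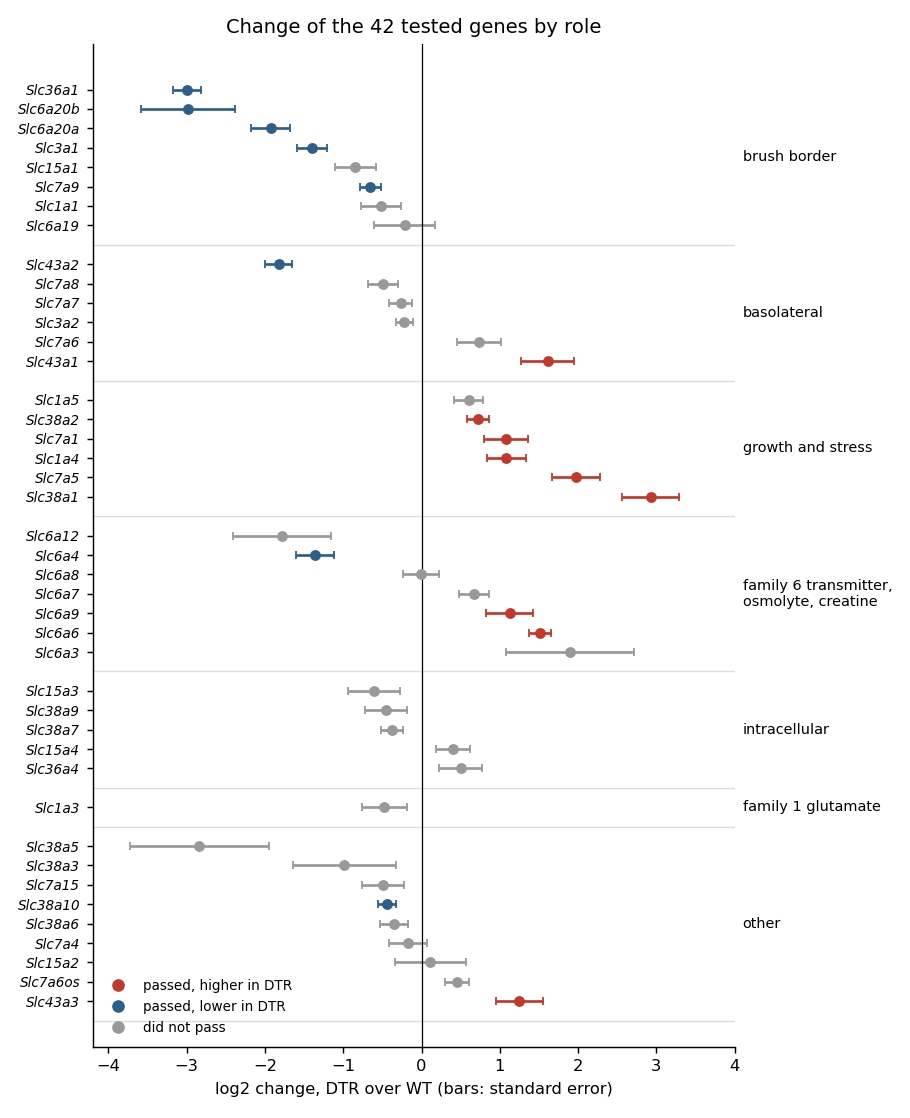
Log2 change, DTR over WT, with its standard error, of the 42 tested genes ordered by role; red and blue mark genes that passed as higher or lower in DTR, grey those that did not pass. The brush border genes lie at or left of -0.22 and the growth and stress genes at or right of 0.60.

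Of the 8 carriers associated with growth and stress 6 were tested, 5 rose and none fell. Of all tested genes 9.54% rose and 8.74% fell. The group was drawn up with earlier results of these data known, so its directions are a description. None of the 5 passed without WT replicate 1, 2 or 3, and 2 passed without DTR replicate 3. Their summed level was 58.2, 43.03 and 55.2 RPKM in DTR libraries and 21.7, 19.9 and 20.3 RPKM in WT libraries, 2.53 times higher in DTR. Slc38a1, a sodium-driven carrier of glutamine and alanine (chromosome 15, 96571418 to 96642913, minus strand), had the most positive change of the 42 tested genes, with 30.8, 11.5 and 14.9 RPKM in DTR libraries, against 2.73, 2.17 and 2.02 RPKM in WT libraries. All DTR libraries were well above WT, DTR replicate 1 most. Its mean was 8.26 times higher in DTR (log2 change 2.93, SE 0.37; limma adjusted p = 0.00983), and it was the 12th of the 69 genes by level in DTR and the 22nd in WT.

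Slc7a5, the light chain for large neutral amino acids such as leucine (chromosome 8, 121881150 to 121907694, minus strand), had 3.14, 2.98 and 5.54 RPKM in DTR libraries, against 0.773, 1.22 and 0.907 RPKM in WT libraries. Its lowest DTR library was above its highest WT library, and DTR replicate 3 was the highest (log2 change 1.97, SE 0.31; limma adjusted p = 0.0161). For Slc38a1 and Slc7a5 the call was lost only without a WT library (adjusted p up to 0.0559 and 0.0749).

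Slc7a1, the main uptake carrier for arginine and lysine in many cell types (chromosome 5, 148327410 to 148399904, minus strand), had 2.95, 3.67 and 6.13 RPKM in DTR libraries, against 2.05, 1.89 and 1.81 RPKM in WT libraries (log2 change 1.08, SE 0.28; limma adjusted p = 0.0452). Slc1a4, a carrier of alanine, serine and cysteine (chromosome 11, 20302180 to 20332713, minus strand), had 2.01, 1.41 and 1.91 RPKM in DTR libraries, against 0.930, 0.924 and 0.662 RPKM in WT libraries (log2 change 1.08, SE 0.25; limma adjusted p = 0.0335). Slc38a2, a sodium-driven carrier of small neutral amino acids (chromosome 15, 96687392 to 96699730, minus strand), had 10.2, 12.2 and 12.4 RPKM in DTR libraries, against 7.31, 6.38 and 7.49 RPKM in WT libraries (log2 change 0.72, SE 0.14; limma adjusted p = 0.0243). These 3 changes were smaller, and each gene's DTR libraries stood clear of its WT libraries. The Slc7a1 call was lost in 8 of 17 other settings (adjusted p up to 0.141), and those of Slc1a4 and Slc38a2 in 5 each. Slc1a5, the glutamine exchanger, did not overlap between groups either but did not pass, with 8.97, 10.96 and 14.0 RPKM in DTR libraries, against 7.78, 6.98 and 7.27 RPKM in WT libraries (log2 change 0.60, SE 0.18; limma adjusted p = 0.0645).

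Slc7a11, the light chain that exchanges cystine for glutamate, and Slc7a3 lay below the filter. Slc7a11 had 76, 219 and 163 reads in DTR libraries, against 86, 116 and 94 reads in WT libraries, and its groups overlapped. Markers of proliferating crypt cells moved with this group: 3 of 6 rose, against 9.54% of all tested genes, and none fell. None was at 0, and their summed level was 84.5 to 119 RPKM in DTR and 50.9 to 53.6 RPKM in WT. Their part in the carrier changes was not tested.

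**Figure D3:**
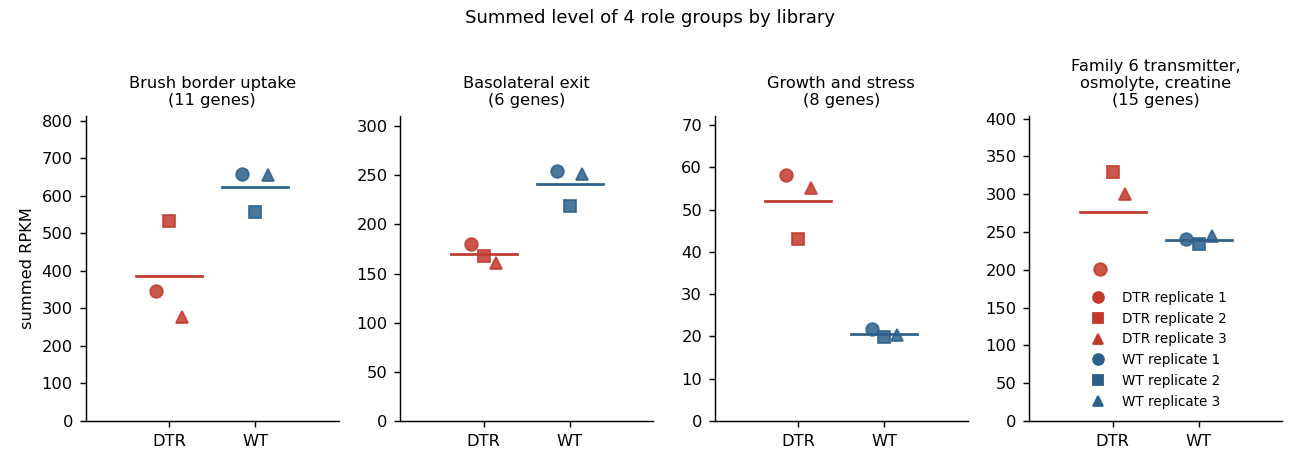
Summed RPKM of 4 role groups by library, DTR left of WT, with bars for the mean. The brush border, basolateral and growth and stress sums do not overlap between DTR and WT, and the family 6 sum does, with 201 to 330 RPKM in DTR and 234 to 245 RPKM in WT.

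In the group of 15 family 6 carriers for neurotransmitters, osmolytes and creatine, 7 were tested, 2 rose and 1 fell. Of all tested genes 9.54% rose and 8.74% fell. Slc6a6, the taurine carrier (chromosome 6, 91684053 to 91759066, plus strand), had 43.6, 51.3 and 54.2 RPKM in DTR libraries, against 16.1, 16.4 and 19.5 RPKM in WT libraries. The DTR libraries stood well apart from the WT libraries, and the call held in all 17 other settings (log2 change 1.52, SE 0.14; limma adjusted p = 0.00531; adjusted p up to 0.0409). Slc6a9, a glycine carrier (chromosome 4, 117834506 to 117875198, plus strand), had 1.30, 1.24 and 1.06 RPKM in DTR libraries, against 0.568, 0.744 and 0.387 RPKM in WT libraries (log2 change 1.13, SE 0.30; limma adjusted p = 0.0463); its exons overlap those of Ccdc24, Gm17114 and B4galt2 on the other strand by 1986 bases in all, and its call was lost in 9 of 16 other settings. Slc6a4, the serotonin carrier that clears serotonin released by enteroendocrine cells (chromosome 11, 76998603 to 77032340, plus strand), had 7.56, 3.89 and 5.85 RPKM in DTR libraries, against 14.8, 13.6 and 14.6 RPKM in WT libraries (log2 change -1.36, SE 0.24; limma adjusted p = 0.0208). Enteroendocrine markers moved with it: 3 of 7 fell, against 8.74% of all tested genes, and none rose. None was at 0, and they summed to 126 to 144 RPKM in DTR and 202 to 219 RPKM in WT. Their part was not tested.

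The creatine carrier Slc6a8, the second most abundant gene of the 69, had 143, 249 and 234 RPKM in DTR libraries, against 205, 199 and 206 RPKM in WT libraries. WT libraries lay close together and DTR libraries on either side of them (log2 change -0.01, SE 0.23; limma adjusted p = 0.987). Slc6a12, a carrier of betaine and GABA, had 0.579, 0.117 and 0.533 RPKM in DTR libraries, against 1.25, 1.10 and 1.09 RPKM in WT libraries; its groups did not overlap, and DTR replicate 2 was far below the rest (log2 change -1.79, SE 0.62; limma adjusted p = 0.0882). Slc6a7, a proline carrier known from brain, had 2.08, 2.40 and 1.81 RPKM in DTR libraries, against 1.19, 1.47 and 1.29 RPKM in WT libraries without overlap but short of the threshold (log2 change 0.67, SE 0.19; limma adjusted p = 0.0564). Slc6a3, the dopamine carrier, had 2.76, 21.9 and 2.74 RPKM in DTR libraries, against 1.35, 1.17 and 2.03 RPKM in WT libraries. DTR replicate 2 was far above the other libraries, and without it the log2 change was 0.90 in place of 1.90; in neither case did it pass (adjusted p = 0.0798 and 0.138).

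None of the 5 tested genes of lysosomal and other intracellular membranes passed, nor did Slc1a3. Slc38a7, a lysosomal glutamine exporter, was the most abundant, with 4.89, 4.03 and 3.86 RPKM in DTR libraries, against 5.41, 5.68 and 5.41 RPKM in WT libraries (log2 change -0.38, SE 0.14; limma adjusted p = 0.108), and all DTR libraries were below WT. Slc38a9, the lysosomal arginine sensor of the mTORC1 pathway, had 0.978, 0.613 and 0.594 RPKM in DTR libraries, against 0.971, 0.971 and 0.972 RPKM in WT libraries (log2 change -0.45, SE 0.27; limma adjusted p = 0.243). Slc15a4, Slc36a4 and Slc15a3 lay between -0.61 and 0.50 in log2 change.

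Of the 19 remaining members 9 were tested; Slc43a3 rose and Slc38a10 fell. Slc43a3, which carries purine nucleobases rather than amino acids (chromosome 2, 84936579 to 84958509, plus strand), had 4.61, 8.29 and 9.93 RPKM in DTR libraries, against 3.56, 2.91 and 2.73 RPKM in WT libraries. Each DTR library was above WT, DTR replicate 1 least so (log2 change 1.25, SE 0.30; limma adjusted p = 0.0379). Slc38a10 (chromosome 11, 120103960 to 120151346, minus strand) had 12.7, 14.6 and 13.5 RPKM in DTR libraries, against 19.3, 17.6 and 18.3 RPKM in WT libraries, a small but even difference (log2 change -0.44, SE 0.11; limma adjusted p = 0.0435). Its call was lost in 8 of 17 other settings, and that of Slc43a3 in 7. Slc7a15 was abundant, with 74.4, 42.7 and 36.8 RPKM in DTR libraries, against 66.4, 63.0 and 77.3 RPKM in WT libraries, and its groups overlapped (log2 change -0.49, SE 0.27; limma adjusted p = 0.220). The other tested genes here, Slc15a2, Slc38a6, Slc7a4 and Slc7a6os, had log2 changes from -0.35 to 0.46 and did not pass either.

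Slc38a5 and Slc38a3, glutamine carriers also known from pancreas, varied widely among libraries of 1 genotype. Slc38a5 had 1.07, 0.102 and 0.453 RPKM in DTR libraries, against 2.25, 5.16 and 1.58 RPKM in WT libraries, without overlap (log2 change -2.84, SE 0.89; limma adjusted p = 0.0687), and passed in 4 of 16 other settings. Of the settings that leave out a library, it passed without DTR replicate 1 (limma adjusted p = 0.0238). Slc38a3 had 0.829, 0.234 and 0.689 RPKM in DTR libraries, against 0.812, 2.14 and 0.600 RPKM in WT libraries, with overlap (log2 change -0.99, SE 0.65; limma adjusted p = 0.296). WT replicate 2 was highest and DTR replicate 2 lowest for each gene. Pancreatic acinar markers, 7 genes of which 6 were tested and none passed in either direction, summed to 23222, 7312 and 10418 RPKM in DTR libraries and to 11247, 31953 and 10706 RPKM in WT libraries, and were likewise highest in WT replicate 2 and lowest in DTR replicate 2. Their part in these values was not tested.

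The 27 genes below the filter were scarce in all libraries, and the highest value in any library was 0.684 RPKM, for Slc6a18 in DTR replicate 2. Slc7a12 had 0 reads everywhere. Slc36a3, which lies beside Slc36a1, had 0, 0 and 0 reads in DTR libraries, against 5, 2 and 9 reads in WT libraries, where no DTR library detected it. Slc1a7, a glutamate carrier, had 19, 28 and 3 reads in DTR libraries, against 65, 60 and 72 reads in WT libraries, without overlap. Slc38a4 had 42, 72 and 68 reads in DTR libraries, against 32, 30 and 22 reads in WT libraries, all higher in DTR, and Slc38a11 had 59, 14 and 18 reads in DTR libraries, against 111, 57 and 78 reads in WT libraries, which overlap as reads but not as RPKM. Slc6a13, a GABA and taurine carrier, had 2, 8 and 2 reads in DTR libraries, against 15, 8 and 18 reads in WT libraries; its highest DTR count equalled its lowest WT count. Fitted with no filter, Slc36a3 alone of these genes passed (limma adjusted p = 0.0391), on the few reads given; its fitted change depends on the prior count. Slc6a14, known to be induced in inflamed gut, had 0, 6 and 4 reads in DTR libraries and 0 in each WT library.

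The balance of light and heavy chains differed between groups for some pairs. Slc7a9 over Slc3a1 was 1.88, 2.89 and 1.99 in DTR libraries and 1.32, 1.36 and 1.28 in WT libraries, as RPKM over RPKM, so the light chain was in larger excess in every DTR library. Slc7a5 over Slc3a2 was 0.0486, 0.0419 and 0.0767 in DTR libraries and 0.00919, 0.0160 and 0.0111 in WT libraries. Slc7a6 over Slc3a2 was 0.0179, 0.0299 and 0.0245 in DTR libraries and 0.0105, 0.0151 and 0.0113 in WT libraries. Slc7a7, Slc7a8 and Slc7a11 over Slc3a2 overlapped between groups.

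**Figure D4:**
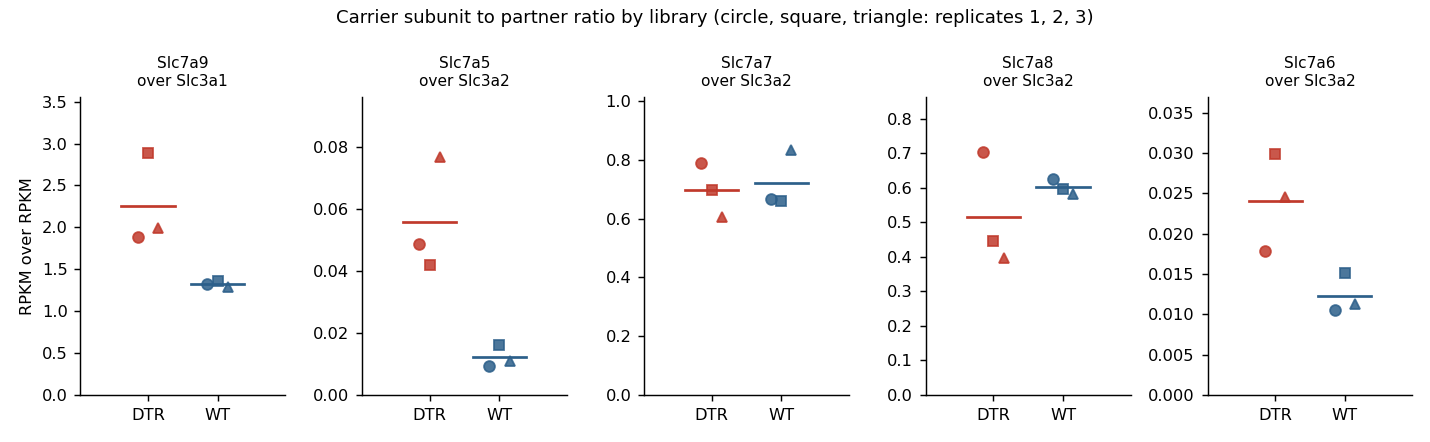
Ratio of the RPKM of a carrier to that of its partner in each library, DTR left of WT, with bars for the mean. The ratios for Slc7a9, Slc7a5 and Slc7a6 are higher in all DTR libraries; those for Slc7a7 and Slc7a8 overlap.

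Several carrier genes lie beside each other in the genome (mm10). Slc6a3, Slc6a18 and Slc6a19 lie within chromosome 13, 73536747 to 73704865, and all were highest in DTR replicate 2, at 21.9, 0.684 and 358 RPKM. Carrier genes elsewhere, such as Slc6a8, Slc7a6 and Slc6a7, were also highest in that library. Slc43a1 and Slc43a3 lie within chromosome 2, 84838850 to 84958509, and both rose. Slc38a1 and Slc38a2 on chromosome 15 both rose, and Slc38a4 in the same stretch was higher in every DTR library. Slc6a20a and Slc6a20b on chromosome 9 both fell. In the chromosome 11 run of Slc36a3, Slc36a2 and Slc36a1 only Slc36a1 was above the filter.

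Genes that work with these carriers were listed by function and read from the same fit, in which 9.54% of all tested genes rose and 8.74% fell. Of 9 tested partner and driving-force genes 4 fell and none rose: Slc16a10, the basolateral aromatic amino acid carrier (11.2 ± 3.95 RPKM in DTR and 30.1 ± 4.76 RPKM in WT (SD, n = 3 each); log2 change -1.47), the brush border scaffold Pdzk1 (-1.78), the sodium-proton exchanger Slc9a3 (-0.94) and the sodium pump subunit Atp1b1 (-1.06). Of 16 brush border and cytosolic peptidases 9 fell and none rose. Mme stood at 34.6 ± 6.39 RPKM in DTR and 158 ± 6.14 RPKM in WT (SD, n = 3 each) and Anpep at 237 ± 14.5 RPKM in DTR and 758 ± 145 RPKM in WT (SD, n = 3 each), and Dpp4 (-1.32), which releases dipeptides from peptide ends, and Pepd (-0.72), which cuts dipeptides ending in proline, were among them. Dpep1 (0.01), Mep1a (0.02) and Npepps (0.02) did not pass.

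Of 17 ATF4 target genes other than carriers 3 rose and 2 fell, where 9.54% of all tested genes rose and 8.74% fell. The serine synthesis gene Psat1 (1.55), Vldlr (2.61) and the translation inhibitor Eif4ebp1 (1.78) rose, and Ddit3 (-1.33) and Trib3 (-0.66) fell. For Asns, asparagine synthetase, the log2 change was 0.62 with an SE of 0.22 (limma adjusted p = 0.0893). Of 22 tested genes of amino acid sensing upstream of mTORC1, 4 rose (Rragc 0.61, Rragd 0.53, Lamtor1 0.47, Mios 0.92) and 3 fell (Castor2 -0.73, Lamtor2 -0.73, Nprl2 -1.27). Without WT replicate 1, 2 and 3, the peptidases that fell numbered 2, 3 and 2, the partner genes that fell 0, 1 and 0 and the ATF4 targets that rose 0, 1 and 0, while no ATF4 target fell and no sensing gene passed. Without DTR replicate 3, 6 peptidases, 2 partner genes and 1 sensing gene fell, 2 ATF4 targets rose, and no ATF4 target fell and no sensing gene rose. Without DTR replicate 2, 5 ATF4 targets rose and 1 fell, and without DTR replicate 1, 5 ATF4 targets and 7 sensing genes rose.

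Carrier levels varied more among DTR than among WT libraries. The SD of log2 RPKM was larger in DTR for 35 of the 42 tested genes (83.3%) and for 82.0% of all tested genes. Its median was 0.35 in DTR and 0.16 in WT over the carriers, and 0.37 and 0.15 over all tested genes.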

How the data were processed

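RNA-seq of whole small intestine was deposited as log2 RPKM for 55487 genes in 3 DTR and 3 WT libraries. The submitters' processing notes name mm10 as the build and, among the authors' tools, STAR, featureCounts from Subread, edgeR, FastQC and MultiQC. Tool versions, strand use and the annotation are not given there. The authors' table of libraries also holds total reads and a normalization factor, a ratio deposited per library. Columns were matched by title, since the descriptions of WT1 and WT2 are the same.

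Whole reads were recovered from the log2 values by removing a prior of 0.25 reads, for 100% of values (tolerance 1e-06), summing to the deposited totals of 61404574 to 76596766. RPKM and reads in the text come from these. Of values from 1 to 20 reads 73.5% were even.

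The comparison of DTR with WT used limma 3.58.1 (R 4.3.3) on the deposited log2 RPKM, with a variance trend, two-sided, Benjamini-Hochberg over 15563 genes with a mean above -2. The fit was tried on simulated data in which both groups had the spread of the WT libraries. It recovered 42%, 46%, 84% and 90% of genes changed 1.5, 2, 4 and 8 times (50 genes each). Of 15363 unchanged genes 6 were called. DTR libraries were spread more than this, so these shares need not hold for the data. Positions are from GENCODE M21 (69 of 69 matched); promoters are from RefSeq, GRCm38.p6. The genes, role groups and lists were chosen with earlier results of these data known. Genes named are those that passed, brush border, basolateral and growth genes with a mean above 1 RPKM in either group, and the leading genes of each pathway list; Slc6a3, Slc6a8, Slc6a12, Slc6a7, Slc38a5, Slc38a3, Slc7a15 and the genes named below the filter were singled out after their values were seen. Other settings were voom on the recovered reads, array weights, the replicate number as a block, each library left out, pseudocounts of 1 and 0.1, quantile or median scaling, filters at 0 or absent, and a fit with a robust prior or without the trend. Some members of the pathway lists are counted but not reported here by name.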

Additional observations from a re-analysis of the deposited data

How the results depend on the processing

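Over 703 combinations of a tested carrier gene and another setting, 602 kept the direction and side of the threshold, 74 lost a call, 19 gained one and 8 turned direction. The turns were in genes that did not pass: Slc6a8 (0.034 with quantile normalization, 0.071 with array weights, 0.25 without DTR replicate 1, 0.0035 without WT replicate 3), Slc15a2 (-0.20 without DTR replicate 1 or WT replicate 1), Slc6a19 (0.064 without DTR replicate 3) and Slc7a4 (0.0063 without DTR replicate 2). With 1 library left out these ran from -0.15 to 0.25, from -0.20 to 0.53, from -0.69 to 0.064 and from -0.33 to 0.0063. The cause was not tested. Of all tested genes 2845 passed, against 4862 with array weights, and leaving out 1 library gave 152 to 5605. Leaving out 1 library gave 1 to 11 carrier genes higher, against 9, and 2 to 13 lower, against 8. Voom on the recovered reads kept all 17 calls, as did both pseudocounts, quantile normalization and the robust prior; 13 held with no filter, 14 with no trend, 14 with a filter at 0, where 3 others were not tested, and 16 with median centring or array weights. With the replicate block, 1161 genes passed in all, and 3 carrier genes were higher and 6 lower, 9 of them among the 17, and no sensing gene passed. Replicate numbers are only names here: deviations of same-numbered libraries correlated at -0.011, -0.0024 and 0.16, and only for replicate 3 was the own number the best match. Depth limits the genes below the filter, most of which had under 100 reads a library.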

Other observations

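Slc7a10 and Slc36a2, both below the filter, are known as surface proteins of adipocytes. Slc7a10 had 0, 51 and 2 reads in DTR libraries, against 6, 4 and 0 reads in WT libraries, and Slc36a2 had 4, 96 and 2 reads in DTR libraries, against 18, 15 and 14 reads in WT libraries. DTR replicate 2 was the highest library for each gene. Of 6 adipocyte genes looked up after these values were seen, 5 were also highest in DTR replicate 2. Adipoq had 16, 1076 and 19 reads in DTR libraries and 308, 16 and 16 reads in WT libraries, Plin1 had 15, 429 and 16 against 148, 0 and 8, and Cfd had 186, 4870 and 38 against 1244, 52 and 80. Fabp4 had 2120, 17406 and 3462 reads in DTR libraries and 1788, 988 and 648 reads in WT libraries. Cidec was high in every library, with 13350, 40213 and 23456 reads in DTR libraries and 12692, 10080 and 10930 reads in WT libraries. Ucp1 did not share the pattern, with 2, 2 and 6 reads in DTR libraries and 0 in each WT library. Their part in the Slc7a10 and Slc36a2 values was not tested. DTR replicate 2 was also the highest library for Slc6a3, Slc6a18 and Slc6a19 and the lowest for Slc38a5, Slc38a3 and Slc6a12. This was common among the carrier genes. Slc6a8, Slc6a7, Slc7a6, Slc43a1 and Slc38a4 were highest there as well, and Slc3a1, Slc43a2 and Slc6a20a lowest.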
